A study of Mus musculus with 4 samples.

Results

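The integrated stress response genes examined here are the 10 genes Atf4, Atf3, Ddit3, Trib3, Chac1, Asns, Sesn2, Ddit4, Psat1 and Phgdh, chosen by symbol out of the 32285 features in each deposited matrix. Ddit3 is listed under a pair of identifiers, so 11 features carry these symbols; the second Ddit3 feature held 0 unique molecular identifiers (UMIs, tags that let each captured RNA molecule be counted once) and was set aside. Raw UMIs of the 10 genes were taken per mouse, genotype and cell state, with and without cells that hold a UMI of Gdf15, a secreted stress cytokine whose gene is a known target of the same response. All 10 genes had enough counts to be tested in sums over microglia.

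In the integrated stress response, kinases that sense amino acid shortage, unfolded protein in the endoplasmic reticulum, haem shortage or double-stranded RNA phosphorylate the translation factor eIF2 alpha. Protein synthesis then falls in general, while translation of the mRNA for the transcription factor ATF4 goes up. ATF4 induces further factors (ATF3, CHOP from Ddit3), the brake TRIB3, and genes for amino acid and serine synthesis, glutathione breakdown and restraint of mTORC1. Because ATF4 is controlled mainly at translation, the mRNA of Atf4 can stay level while its targets move.

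Cells were sorted for CD45 and CD11b from whole brains of 2 PRMT1FL mice and 2 PRMT1Cx3cr1-KO mice, 1 droplet library per mouse. The main tests compare sums per mouse, and the spread between sums behind their p-values is estimated partly from all genes tested. Both genotypes carried floxed Prmt1 alleles (the labels call the PRMT1FL mice wild type), and both were fed 0.2% cuprizone (CPZ), a copper chelator that strips myelin, for 5 wk. The PRMT1Cx3cr1-KO mice also carried a tamoxifen-inducible Cre recombinase under Cx3cr1, a promoter active in microglia and other brain macrophages. The methods give tamoxifen to both genotypes at 5 to 6 wk of age and start the diet 2 wk later. The labels instead give 5 to 6 wk as the age for the diet. PRMT1FL mice lacked the Cre allele, so the loss of Prmt1 and the presence of Cre cannot be told apart. One label field describes the cells as quiescent microglia, although every mouse had been given CPZ.

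The 4 libraries held 76943248 to 99559644 UMIs, and 8170 to 11427 cells per mouse passed the limits on genes and mitochondrial UMIs. Microglial clusters held 10959 and 7801 cells of the PRMT1FL mice and 10169 and 10606 cells of the PRMT1Cx3cr1-KO mice, at a median of 6226 to 7064 UMIs per cell. The 6 homeostatic microglial markers, P2ry12 and Tmem119 among them, were all detected there and summed to 2428 to 2707 CPM per mouse (UMIs per 1000000 microglial UMIs). Prmt1 itself stood at 90.7 and 83.9 CPM in PRMT1FL mice and at 70.1 and 70.7 CPM in PRMT1Cx3cr1-KO mice, lower in both (log2 change -0.39, SE 0.07, adjusted p = 0.0752 by the quasi-likelihood test of edgeR, Benjamini-Hochberg adjusted). PRMT1Cx3cr1-KO mouse 2 stood apart from the others, with 1.72% of its cells in the chemokine-like state against 6.46 to 7.32% in the other mice, and 4.08% against 0.147 to 0.887% in the Ms4a7 phagocyte-like state. The libraries shared few barcodes, with 178 found in 2 of them, 1 in 3 and 11 in all 4.

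Targets of ATF4 and CHOP often carry a C/EBP-ATF response element, a composite site with the core TGATGNAA. In RefSeq promoter windows of 300 bases (250 before to 50 after the gene's start, GRCm38.p6), searched on both strands, this core was found in 4 of the 10 genes (40%), against 4.51% of all 27025 genes with such a window and 28.8% of 52 other genes of the response. Those 52 are the genes of a longer list of 65 whose window was found by symbol. The 4 windows that held the core are shown. Trib3, Chac1, Asns and Atf3 are, with Sesn2, the 5 genes that differed most between microglia with and without Gdf15 below. The window of Sesn2 held no match, and a link between the core and that result was not tested. The windows shown lie at chr1:191183284-191183583 on the minus strand for Atf3, chr2:152344011-152344310 on the minus strand for Trib3, chr2:119350992-119351291 on the plus strand for Chac1 and chr6:7693160-7693459 on the minus strand for Asns. Each is written 5′ to 3′ along the gene's strand, with the core in capitals.
Atf3: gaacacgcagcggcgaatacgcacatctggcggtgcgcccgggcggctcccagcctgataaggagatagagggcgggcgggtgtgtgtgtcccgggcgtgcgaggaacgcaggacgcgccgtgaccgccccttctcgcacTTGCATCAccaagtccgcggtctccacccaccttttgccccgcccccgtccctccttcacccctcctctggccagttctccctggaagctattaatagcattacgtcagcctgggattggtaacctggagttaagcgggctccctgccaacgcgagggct
Trib3: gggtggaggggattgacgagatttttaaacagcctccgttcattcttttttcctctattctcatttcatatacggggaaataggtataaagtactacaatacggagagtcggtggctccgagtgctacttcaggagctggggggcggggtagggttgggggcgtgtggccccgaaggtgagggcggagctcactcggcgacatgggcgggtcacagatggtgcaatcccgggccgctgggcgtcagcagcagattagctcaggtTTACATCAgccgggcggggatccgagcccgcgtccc
Chac1: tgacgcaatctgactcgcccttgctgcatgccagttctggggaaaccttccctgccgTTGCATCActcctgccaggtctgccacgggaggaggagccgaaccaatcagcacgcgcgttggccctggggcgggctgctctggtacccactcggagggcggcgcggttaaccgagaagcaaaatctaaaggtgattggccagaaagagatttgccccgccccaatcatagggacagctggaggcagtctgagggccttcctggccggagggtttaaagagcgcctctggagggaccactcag
Asns: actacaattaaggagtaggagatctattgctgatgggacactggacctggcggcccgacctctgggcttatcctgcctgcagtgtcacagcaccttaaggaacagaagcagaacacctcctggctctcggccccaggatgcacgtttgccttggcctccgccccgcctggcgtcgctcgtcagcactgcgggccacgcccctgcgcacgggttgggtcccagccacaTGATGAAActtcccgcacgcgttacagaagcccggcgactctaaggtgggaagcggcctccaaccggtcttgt
The core began 110 bases before the RefSeq start of Atf3 and 193 before that of Chac1, in both on the strand opposite to the gene, and 23 bases before the start of Asns on the gene's own strand. In Trib3 it lay 14 bases past the start, on the opposite strand. A match of letters does not show binding, and the windows of the other 6 genes lack only these letters in this stretch.

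The regulators come first. Atf4 (ENSMUSG00000042406, chr15:80255184-80257541, plus strand, GRCm38), the master factor of the response, stood at 95.3 and 76.4 CPM in microglia of PRMT1FL mice and at 107 and 84.7 CPM in PRMT1Cx3cr1-KO mice. Atf3 (ENSMUSG00000026628, chr1:191170296-191218039, minus strand, a span that reaches upstream of the RefSeq start used above), an immediate-early repressor that stress and dissociation both induce, was at 1032 and 893 CPM against 1088 and 757 CPM. Ddit3 (ENSMUSG00000025408, chr10:127290774-127296288, plus strand), which encodes the pro-apoptotic factor CHOP, was at 53.9 and 48.1 CPM against 54.9 and 41.3 CPM. In all 3 the genotypes overlapped, and in all 3 mouse 2 lay below mouse 1 in each genotype. Trib3 (ENSMUSG00000032715, chr2:152337422-152344032, minus strand), a pseudokinase that restrains ATF4 and CHOP, was at 4.71 and 3.96 CPM against 4.88 and 3.39 CPM, again with overlap. The log2 changes were 0.09 (95% confidence interval -0.28 to 0.46) for Atf4, -0.13 (-0.58 to 0.32) for Atf3, -0.16 for Ddit3 and -0.15 for Trib3, and each interval included 0.

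The metabolic and effector genes behaved alike in the sums over all microglia. Asns (ENSMUSG00000029752, chr6:7675169-7693254, minus strand), which makes asparagine, was at 22.3 and 21.8 CPM in PRMT1FL mice and at 21.8 and 15.8 CPM in PRMT1Cx3cr1-KO mice, so that only PRMT1Cx3cr1-KO mouse 2 lay clearly below the rest. Psat1 (ENSMUSG00000024640, chr19:15904678-15947337, minus strand) and Phgdh (ENSMUSG00000053398, chr3:98313170-98339990, minus strand) encode enzymes of serine synthesis. Psat1 was at 170 and 156 CPM against 173 and 179 CPM. Phgdh was at 178 and 165 CPM against 179 and 171 CPM. Both serine genes were nearly level between genotypes. Chac1 (ENSMUSG00000027313, chr2:119351229-119354381, plus strand), which degrades glutathione, was close to the detection limit at 1.90 and 1.14 CPM against 1.36 and 1.27 CPM. Sesn2 (ENSMUSG00000028893, chr4:132492032-132510501, minus strand), a leucine sensor that holds mTORC1 down, was at 8.71 and 6.20 CPM against 7.39 and 5.88 CPM. Ddit4 (ENSMUSG00000020108, chr10:59949669-59951834, minus strand), another mTORC1 inhibitor, was at 4.06 and 4.65 CPM against 3.77 and 4.08 CPM. For Sesn2, Chac1 and Ddit4 the genotypes overlapped too.

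By the quasi-likelihood test of edgeR, adjusted over 13819 genes by Benjamini-Hochberg, 0 of the 10 genes differed between genotypes, where 0.666% of all genes were called. At an unadjusted p under 0.05, 0 of the 10 passed against 19.8% of all genes, and DESeq2 likewise called 0 of the 10 against 5.18% of all genes. The lowest adjusted p was that of Asns (log2 change -0.31, SE 0.16, interval -0.68 to 0.07, adjusted p = 0.333), and those of the others ran from 0.348 for Ddit4 to 0.838 for Psat1. The median log2 change of the 10 genes was -0.15 against -0.00 for all genes tested, and 8 of the 10 values were negative. Gdf15, in contrast, rose in the same sums from 10.6 and 16.5 CPM to 49.9 and 57.0 CPM (log2 change 1.91, SE 0.19, adjusted p = 0.0229). In sums over all microglia a change in the mix of cell states and a change within cells cannot be told apart. An exact permutation test of 2 mice against 2 on a single gene has 0.333 as its smallest p.

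**Figure D1:**
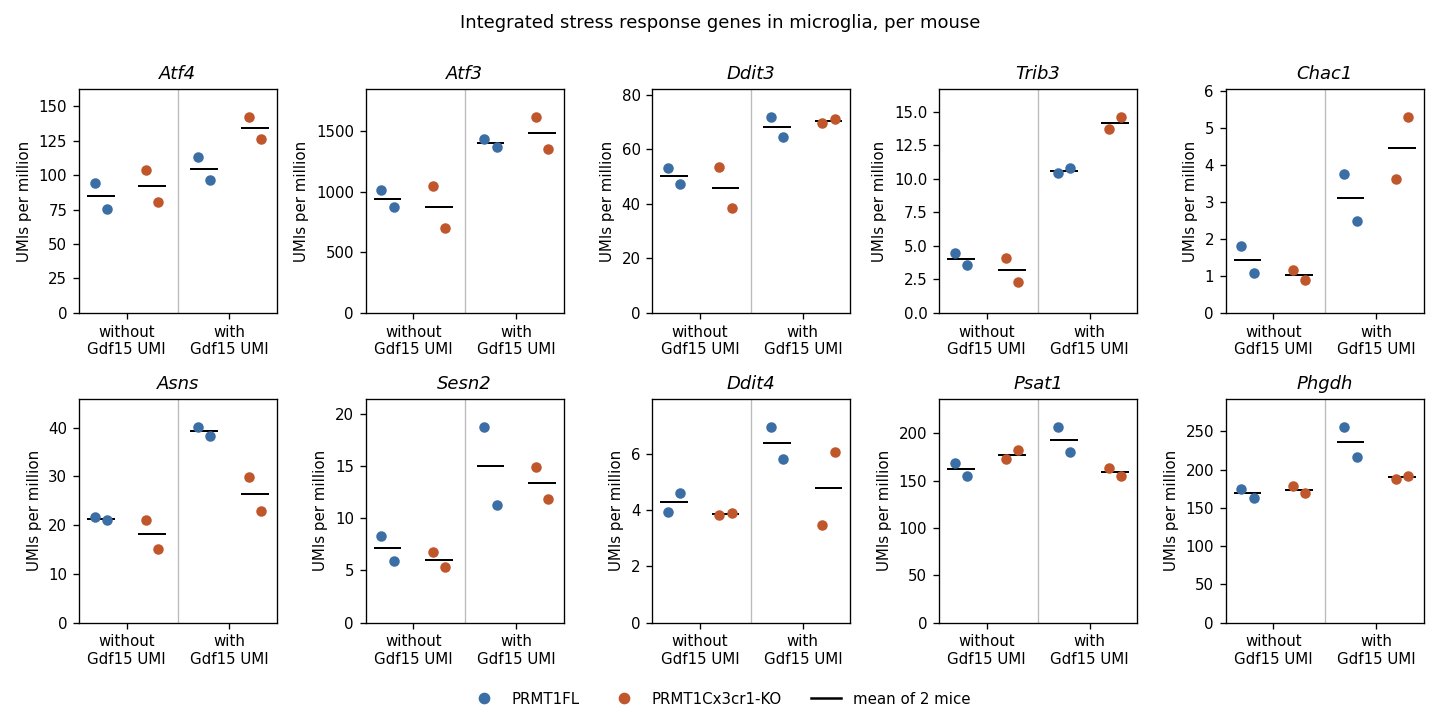
Level of each of the 10 genes (vertical axes, CPM of the same cells) in microglia without and with a Gdf15 UMI, 1 point per mouse with the mean of the 2 mice as a bar. Trib3 lies at 10.4 to 14.6 CPM in microglia with a Gdf15 UMI against 2.34 to 4.47 CPM without.

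One mouse set the direction of several of these values. Without PRMT1Cx3cr1-KO mouse 1, Atf3 (-0.44, adjusted p = 0.00994), Ddit3 (-0.40, adjusted p = 0.00619), Trib3 (-0.46, adjusted p = 0.0476) and Asns (-0.58, adjusted p = 8.0e-04) were called lower by edgeR, 4 of 10 genes where 17.9% of all genes were called. These calls set PRMT1Cx3cr1-KO mouse 2, the mouse that stood apart in its cell states, alone against both PRMT1FL mice, and the lone mouse is assumed to vary as the others do. In PRMT1Cx3cr1-KO mouse 1, Atf3 (1088 CPM), Ddit3 (54.9 CPM) and Trib3 (4.88 CPM) lay above both PRMT1FL mice, and Asns (21.8 CPM) was level with PRMT1FL mouse 2.

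The rest of the response was read from 65 further genes, of which 61 could be tested. In all microglia 0 of the 61 were called by edgeR, where 0.666% of all genes were, with a median log2 change of -0.05. At an unadjusted p under 0.05 there were 11, against 19.8% of all genes, and DESeq2 called 4, against 5.18% of all genes. The 4 eIF2 alpha kinases, PERK (Eif2ak3), GCN2 (Eif2ak4), PKR (Eif2ak2) and HRI (Eif2ak1), had log2 changes between -0.11 and 0.05. Ppp1r15a, whose product GADD34 removes the phosphate from eIF2 alpha, had 0.45 (adjusted p = 0.241 from edgeR), and Atf5, a factor translated under the same control as ATF4, had -0.70 (adjusted p = 0.0784 from edgeR).

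Within each mouse, microglia that held a Gdf15 UMI carried more of most of these mRNAs than microglia that held none. The PRMT1FL mice had 300 and 248 such cells and the PRMT1Cx3cr1-KO mice 598 and 710, or 2.74 and 3.18% against 5.88 and 6.69% of the microglia. They were deeper, with a median of 8363.5 to 12500 UMIs per cell. Free RNA in the droplets can add a UMI to any cell: of 74 neutrophil-like cells 1 held one (1.35%, exact 95% binomial interval 0.0342 to 7.30%, counting error only), and of 77 endothelium-like cells 0 did. Of 362 astrocyte-like cells 13 held one (3.59%, 1.93 to 6.06%) and of 54 oligodendrocyte-like cells 16 (29.6%). The shares in microglia of PRMT1FL mice were not above that of astrocyte-like cells, so there a single Gdf15 UMI cannot by itself be told apart from free RNA. Most of these comparison cells came from PRMT1FL mice. PRMT1Cx3cr1-KO mice gave 41 and 23 astrocyte-like cells, of which 1 in each mouse held a Gdf15 UMI. Over all cells Gdf15 was at 49.6 and 58 CPM in these mice against 11.3 and 16.6 CPM in PRMT1FL mice. How far free RNA adds to the PRMT1Cx3cr1-KO shares thus could not be gauged. Pooled over the PRMT1FL mice, 272 microglia held 1 Gdf15 UMI, 126 held 2 to 3 and 150 held 4 or more. Over the PRMT1Cx3cr1-KO mice these numbers were 497, 241 and 570. Whether astrocyte-like cells hold Gdf15 RNA of their own was not tested, nor was the part of free RNA. Neutrophil-like cells of PRMT1FL mice were shallower than microglia, at medians of 3192 and 4930.5 UMIs. So were endothelium-like cells (1557.5 to 2560.5 UMIs per mouse) and astrocyte-like cells (1643 to 2932 UMIs per mouse).

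Trib3 had the largest difference. It was at 4.47, 3.60, 4.13 and 2.34 CPM in microglia without a Gdf15 UMI (PRMT1FL mice 1 and 2, then PRMT1Cx3cr1-KO mice 1 and 2) and at 10.4, 10.8, 13.7 and 14.6 CPM in microglia with one, from 36, 39, 87 and 116 UMIs. The ranges do not overlap, and the log2 change within mice was 1.81 (SE 0.19, adjusted p = 1.3e-04 by edgeR). Chac1, from 13, 9, 23 and 42 UMIs, went from 1.82, 1.07, 1.17 and 0.896 CPM to 3.76, 2.49, 3.62 and 5.30 CPM (1.68, SE 0.27, adjusted p = 0.00257), higher in every mouse. Sesn2 went from 8.30, 5.93, 6.74 and 5.32 CPM to 18.8, 11.3, 14.9 and 11.9 CPM (1.06, SE 0.11, adjusted p = 7.4e-05), again without overlap. Asns went from 21.6, 21.0, 21.1 and 15.2 CPM to 40.2, 38.4, 29.9 and 22.9 CPM (0.65, SE 0.08, adjusted p = 5.6e-04). Asns was higher with Gdf15 in each of the 4 mice.

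The upstream factors rose less. Atf3 went from 1015, 869, 1043 and 702 CPM to 1434, 1367, 1613 and 1351 CPM (log2 change 0.63, SE 0.06, adjusted p = 4.8e-05 from edgeR). Ddit3 went from 53.2, 47.3, 53.6 and 38.4 CPM to 71.8, 64.7, 69.7 and 71.3 CPM (0.50, SE 0.08, adjusted p = 0.00244). Atf4 went from 94.5, 75.3, 104 and 80.8 CPM to 113, 96.3, 142 and 126 CPM (0.38, SE 0.06, adjusted p = 0.00234), where the ranges overlap although each mouse rose. Ddit4 (0.38, SE 0.18, adjusted p = 0.285), Phgdh (0.25, SE 0.07, adjusted p = 0.058) and Psat1 (-0.01, adjusted p = 0.963) did not pass. Together, 7 of the 10 genes were higher in cells with a Gdf15 UMI, where 2.80% of 13481 genes were called higher and 4.73% in either direction.

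The 7 called genes kept their direction in the other settings tried. Limma's voom, with the cell state as a term, was fitted on sums per mouse, state and Gdf15 status. It called Trib3 (1.97), Sesn2 (1.12), Asns (0.75), Ddit3 (0.52), Atf3 (0.43), Atf4 (0.34) and Phgdh (0.32) higher, while Chac1 and Ddit4 could not be tested. States of a mouse entered this fit as separate sums, so its calls do not rest on the spread between mice alone. In another setting cells were thinned to 1000 UMIs, shallower cells were left out, and Gdf15 status was read again from the thinned counts. The sets compared are thus not the same cells as above, and the sizes of the changes cannot be set side by side. In this setting the median of all genes moved by -0.10. Trib3 was at 3.18, Sesn2 at 1.54, Asns at 1.33 and Atf3 at 1.10, while Chac1 (1.70, adjusted p = 0.382 from edgeR) was lost. The summed level of 10 genes induced by cell dissociation was also higher in the cells with a Gdf15 UMI, at 7265, 6899, 9382 and 8036 CPM against 6019, 5672, 7151 and 5166 CPM in all microglia, with 7 of the 10 called higher. The part of dissociation in the result was not tested.

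The wider list moved in the same comparison. Of its 61 tested genes 25 were higher and 1 was lower in microglia with a Gdf15 UMI, where 2.80% of all genes were higher. Their median log2 change was 0.22 against -0.00 for all genes. The largest were Ndrg1 (1.95, adjusted p = 0.0227), Slc7a11, the cystine transporter (1.74, adjusted p = 2.3e-04), Slc6a9, a glycine transporter (1.34, adjusted p = 0.0191), Vegfa (0.87, adjusted p = 0.00729) and the autophagy receptor Sqstm1 (0.87, adjusted p = 1.8e-04), all from edgeR. Ppp1r15a (0.47, adjusted p = 0.0058) and Atf5 (0.41, adjusted p = 0.0032) rose as well. Counted by role, 6 of 7 further transcription factors, 5 of 8 amino acid transporters, 4 of 14 aminoacyl-tRNA synthesis genes and 2 of 9 amino acid synthesis genes were called higher. Of the kinases only Eif2ak2 changed, and it was lower (-0.31, adjusted p = 0.00815), while the other 3 had values from -0.02 to 0.08.

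Whether genotype mattered inside these cells was asked next. The cells compared were not alike in Gdf15 itself, at 270 and 332 CPM in PRMT1FL mice against 639 and 668 CPM in PRMT1Cx3cr1-KO mice. The genotypes were not tested at matched levels of Gdf15. Among microglia with a Gdf15 UMI, Asns (log2 change -0.68, SE 0.15, adjusted p = 0.0177), Phgdh (-0.41, SE 0.10, adjusted p = 0.0261) and Psat1 (-0.37, SE 0.10, adjusted p = 0.0418) were lower in PRMT1Cx3cr1-KO mice by edgeR, 3 of 10 genes where 5.13% of 10572 genes were called. Psat1 was at 207 and 180 CPM in PRMT1FL mice against 163 and 155 CPM, and Phgdh at 256 and 217 CPM against 188 and 192 CPM, so the genotypes did not overlap for any of the 3. Trib3 (0.33, adjusted p = 0.399), Chac1 (0.44, adjusted p = 0.575) and Atf4 (0.27, SE 0.11, adjusted p = 0.197) lay on the other side of 0 without passing, from edgeR. The 3 calls were lost by DESeq2, which called 0 of the 10, and with the cell state as a term in limma's voom. In the latter fit Asns was at -0.42 (adjusted p = 0.432), Psat1 at -0.09 and Phgdh at -0.07. Without PRMT1FL mouse 1, 0 of the 10 were called by edgeR, and without PRMT1FL mouse 2 only Phgdh was (-0.52, adjusted p = 0.046). The cells came from different states in the 2 genotypes: cluster 2 gave 16.3 and 18.5% of the microglia with a Gdf15 UMI in PRMT1FL mice against 36.0 and 33.7% in PRMT1Cx3cr1-KO mice, and in every mouse Psat1 and Phgdh were lower in that cluster than in cluster 0, the largest state.

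Outside these cells 0 of the 10 genes were called by edgeR, where 0.459% of 13717 genes were, 0 of the 10 at an unadjusted p under 0.05 (19.4% of all genes) and 0 by DESeq2 (4.72%). The values there were -0.57 for Chac1 (adjusted p = 0.359), -0.39 for Trib3 (adjusted p = 0.482) and between -0.31 and 0.06 for the other 8. A test of the difference between the 2 sets of cells called Psat1 (-0.43, SE 0.07, adjusted p = 3.5e-04) and Phgdh (-0.37, SE 0.07, adjusted p = 0.00134), 2 of the 10 where 5.71% of genes were called by edgeR, and 6 of the 10 were called without PRMT1Cx3cr1-KO mouse 1, where 6.93% of genes were. Psat1 rose with Gdf15 in PRMT1FL mice taken alone (0.22) and fell in PRMT1Cx3cr1-KO mice (-0.23). Both differences were lost with the cell state as a term (-0.20 and -0.15) and with limma's voom and the mouse as a random block, where 0 of the 10 genes were called. For Trib3 (0.77, adjusted p = 0.130), Chac1 (1.01, adjusted p = 0.219) and Asns (-0.36, adjusted p = 0.107) the difference did not pass by edgeR. Where at least 2 Gdf15 UMIs were asked for, Trib3 was called both for the genotype change (1.16, adjusted p = 0.0357) and for this difference (1.62, adjusted p = 0.0158).

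Trib3 differed with the amount of Gdf15 as well. In PRMT1Cx3cr1-KO mice, pooled, it was at 3.18 CPM in cells with 0 Gdf15 UMIs, 7.20 with 1, 11.3 with 2 to 3 and 21.3 with 4 or more (exact Poisson interval 17.8 to 25.2, counting error only). In PRMT1FL mice it was at 4.08, 13.4, 11.1 and 4.81 CPM (2.20 to 9.13 in the last class). The ordered climb was thus seen in PRMT1Cx3cr1-KO cells and not in PRMT1FL cells, and it was not tested over mice. Atf4 went in the same order in PRMT1Cx3cr1-KO mice, from 91.8 through 110 and 140 to 150 CPM, while in PRMT1FL mice it stayed between 97.8 and 109 CPM in every class with Gdf15.

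**Figure D2:**
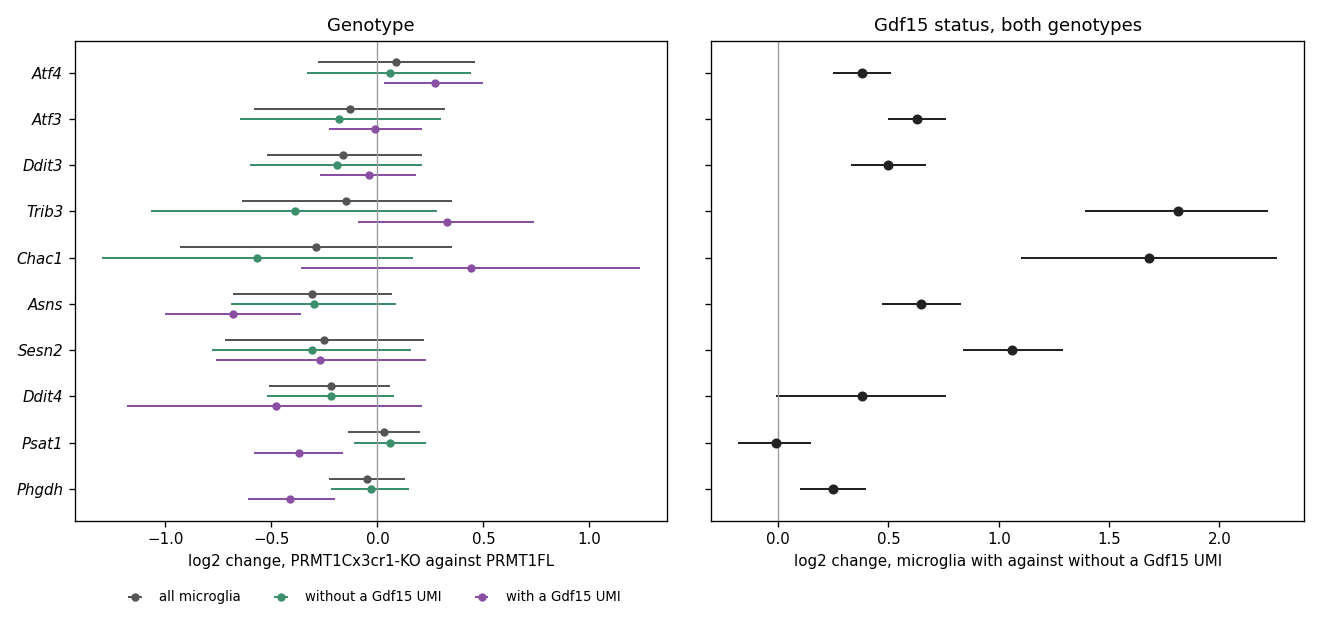
Log2 change of each of the 10 genes with 95% confidence interval, on the left for PRMT1Cx3cr1-KO against PRMT1FL in all microglia and in those without and with a Gdf15 UMI, on the right for cells with against without a Gdf15 UMI within mice. On the left the intervals for all microglia include 0 for all 10 genes, and on the right Trib3 (1.81) and Chac1 (1.68) lie farthest above 0.

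Across cell states the 10 genes fell into different patterns, given here as a description. States are Leiden clusters made without the 10 genes, Gdf15 and the wider list, and named where fixed markers led them. Atf3 was at 2271 to 2618 CPM per mouse in chemokine-like cells and 1492 to 2261 CPM in cluster 2 (led by Hspa1b, Txnip, Hspa1a and Jun), but at 71.6 to 94.8 CPM in cluster 1 (led by Lgals3 and Ccl6). Atf4 was also highest among the large states in cluster 2 (128 to 182 CPM) and lowest in cluster 1 (41.3 to 54.9 CPM), ranges that do not overlap. Ddit3 likewise lay above cluster 1, with 52.2 to 79.0 CPM in cluster 2 and 26.5 to 34.8 CPM in cluster 1. Of the marker lists, that of 4 haemoglobin genes was the most raised in cluster 1 (mean log2 ratio to other cells 5.4). A finer cluster with a median of 948 UMIs per cell took 10.2% of cluster 1. The part of haemoglobin RNA and of such shallow cells in these low levels was not tested. The dissociation genes summed to 12485 to 16286 CPM in cluster 2 and 13164 to 13985 CPM in chemokine-like cells, against 303 to 361 CPM in cluster 1, and their part in Atf3 and Atf4 was not tested.

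Serine and asparagine synthesis genes followed another order. Among microglial states Psat1 was highest in mitotic-like cells (280 to 301 CPM) and low in cluster 2 (43.4 to 87.6 CPM) and cluster 4 (28.5 to 87.7 CPM, led by Il7r, Slc40a1 and P2ry12). It was also low in MHC class II-like (60.5 to 83.8 CPM), chemokine-like (46.8 to 97.4 CPM) and Ms4a7 phagocyte-like cells (64.5 CPM pooled). Phgdh was at 260 to 328 CPM in mitotic-like cells. Pooled over mice, Phgdh was at 128 CPM in cluster 2 and 125 CPM in cluster 4. It was lower in MHC class II-like (83.2 CPM), chemokine-like (90.9 CPM) and Ms4a7 phagocyte-like cells (38.3 CPM). Asns was at 4.96 to 7.74 CPM in cluster 2 and cluster 4 of PRMT1FL mice and at 30.6 to 34.5 CPM in mitotic-like cells of every mouse but PRMT1Cx3cr1-KO mouse 2 (19.7 CPM). Over 38 sums per mouse and state the log2 levels of Atf4 and Asns had a Pearson r of -0.24, a description over sums that share libraries. The nearest genes to Atf4 among 9015 were Klf10 (0.88), Brd2 (0.86) and Bbc3 (0.85), to Atf3 they were Cd83 (0.98), Osm (0.97) and Ccrl2 (0.97), and to Ddit3 Klf4 (0.82), Atf3 (0.80) and Sertad1 (0.78).

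**Figure D3:**
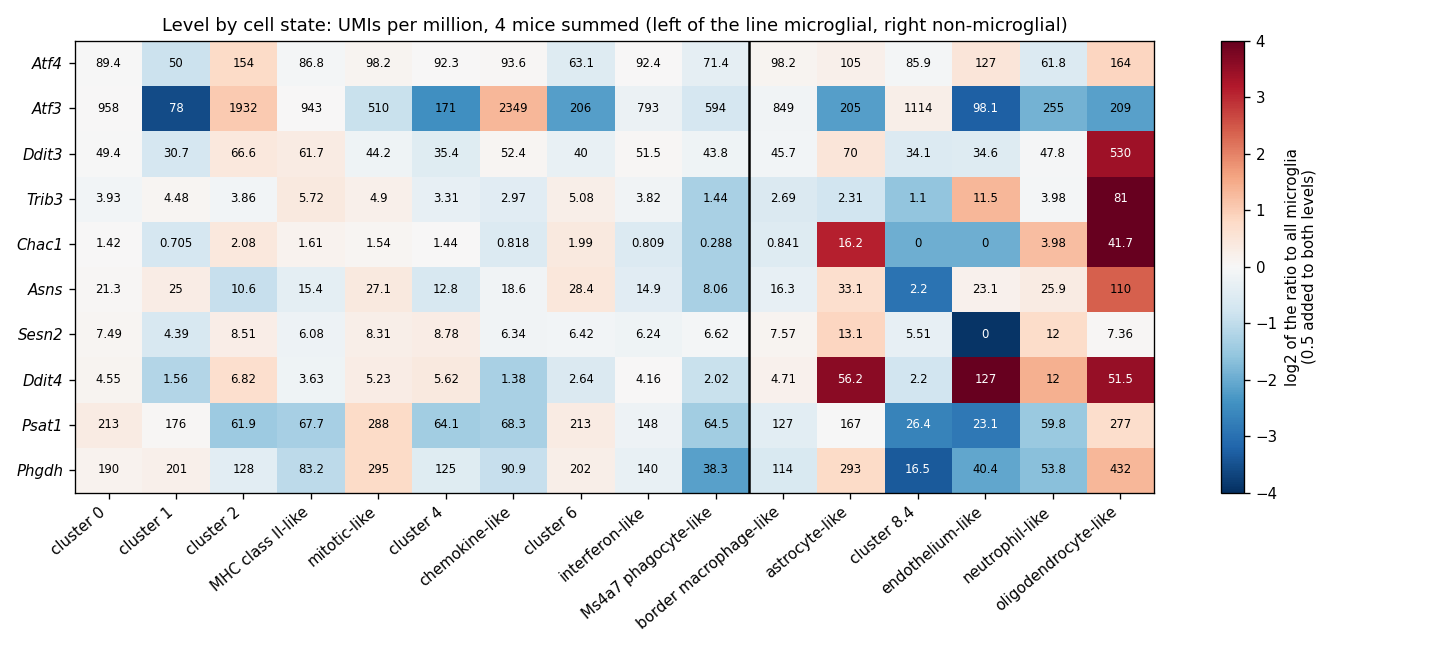
Level of each of the 10 genes (rows) in each cell state (columns, microglial states left of the line), written in CPM over the 4 mice summed and shaded by the log2 ratio to all microglia. Atf3 is high in chemokine-like cells and cluster 2 and low in cluster 1, Psat1 and Phgdh are high in mitotic-like cells, and oligodendrocyte-like cells are high in Ddit3, Trib3 and Chac1.

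Inside single states the genotypes did differ, in clusters 2, 4 and 6. In cluster 2 Asns was at 5.69 and 7.74 CPM in PRMT1FL mice and at 13.7 and 14.4 CPM in PRMT1Cx3cr1-KO mice (log2 change 1.06, SE 0.18, adjusted p = 0.00138 from edgeR). Psat1 went from 43.4 and 45.5 CPM to 67.3 and 87.6 CPM (0.79, SE 0.11, adjusted p = 3.2e-04). Phgdh went from 107 and 103 CPM to 143 and 155 CPM (0.49, SE 0.08, adjusted p = 0.00118). Trib3 went from 1.86 and 2.37 CPM to 5.80 and 4.99 CPM, on 16, 19, 56 and 46 UMIs (1.34, SE 0.29, adjusted p = 0.00583). The genotypes did not overlap for any of the 4, which is 4 of the 10 genes where 15.7% of genes in this cluster were called. Without PRMT1FL mouse 1 Trib3 did not pass (1.15, adjusted p = 0.0837), while Asns, Psat1 and Phgdh passed without each mouse in turn. Chac1 was at 1.39 and 1.12 CPM against 2.38 and 3.25 CPM without passing (1.14), nor did Sesn2 (0.51) and Atf4 (0.20).

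Cluster 4 showed a similar set. Like cluster 2 it was rich in homeostatic markers, at 6258 to 7712 CPM per mouse in cluster 4 and 4781 to 5724 CPM in cluster 2 against 2273 to 2578 CPM in cluster 0. Psat1 was at 48.8 and 28.5 CPM against 62.2 and 87.7 CPM (1.03, SE 0.21, adjusted p = 0.00148 from edgeR), and Asns at 4.96 and 7.13 CPM against 12 and 19.0 CPM, on 6, 10, 16 and 57 UMIs (1.42, SE 0.39, adjusted p = 0.0212). Atf4 was at 85.9 and 54.2 CPM against 120 and 100 CPM (0.65, SE 0.17, adjusted p = 0.014), and Phgdh at 111 and 91.3 CPM against 133 and 142 CPM (0.46, SE 0.14, adjusted p = 0.0332). That is 4 of the 8 genes tested where 8.12% of all genes were called, and Trib3 and Chac1 had too few UMIs for a test. Of the 4, all but Atf4 were lost without PRMT1Cx3cr1-KO mouse 2 (Asns 0.96, adjusted p = 0.520; Psat1 0.71, adjusted p = 0.0635; Phgdh 0.40, adjusted p = 0.189), and Atf4 (0.36), Psat1 (0.69), Asns (1.74) and Phgdh (0.34) did not pass without PRMT1FL mouse 2. Without PRMT1FL mouse 1, Asns (1.19) and Phgdh (0.59) did not pass.

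In cluster 6, led by Gpnmb and Ctla2a, the direction was the opposite. Atf3 was lower at 271 and 222 CPM against 177 and 179 CPM (-0.52, SE 0.10, adjusted p = 0.015 from edgeR), and Phgdh at 242 and 241 CPM against 205 and 165 CPM (-0.45, SE 0.11, adjusted p = 0.0498), 2 of the 10 genes where 1.42% were called. Atf3 was lost without PRMT1FL mouse 1 (-0.38, adjusted p = 0.227), and Phgdh without PRMT1Cx3cr1-KO mouse 2 (-0.26, adjusted p = 0.433) and without either PRMT1FL mouse. In the other 7 states 0 of the 6 to 10 genes tested were called by edgeR, where the shares of all genes called were 0.632% in MHC class II-like cells, 0.949% in border macrophage-like cells, 0.817% in chemokine-like cells, 2.83% in cluster 0, 2.50% in cluster 1, 0.792% in interferon-like cells and 0.320% in mitotic-like cells. At an unadjusted p under 0.05 there were 1 to 3 per state. Of all genes, in the same order, 1308 of 11069, 787 of 7899, 1069 of 10283, 2399 of 12602, 1623 of 10064, 817 of 9088 and 1045 of 10639 were under that level. Over all 10 states, 10 of 90 tests of these genes were called with all mice, against 3.53% of the tests of all genes, and 36 of 92 without PRMT1Cx3cr1-KO mouse 1, against 7.65%. In cluster 0 the values of Chac1 (-1.11), Trib3 (-0.61) and Asns (-0.45) were below 0 without passing. Trib3 in MHC class II-like cells was at 3.18 and 3.13 CPM against 6.17 and 15.7 CPM (1.67) and did not pass. A finer clustering put 5.28% of this state in a group led by Mgst1, Mmp12 and Gdf15, with Trib3 also among its 10 leading genes. That group held 5 and 3 cells of PRMT1FL mice against 107 and 219 of PRMT1Cx3cr1-KO mice. In the finer MHC class II-like cluster, 47.3% of the state, Trib3 was at -0.87 without passing.

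The genotype change in cluster 2 differed from that in cluster 0, the largest state (led by Hcar2 and Ptgs2), for 6 of the 10 genes where 14.0% of genes differed by edgeR. This contrast and that of cluster 4 were added after the rises in these clusters had been seen. Their p-values draw the spread largely from all genes, not from the mice for each gene alone. Cluster 6, with its falls, was not set against cluster 0. Cluster 0 was deeper, at a median of 12425 UMIs per cell against 4084 in cluster 2 and 2299.5 in cluster 4. Of its cells 18.9% were marked as doublets, against 5.96% in cluster 2 and 1.96% in cluster 4. Neither these contrasts nor the fits within states were repeated without marked cells or at equal depth. The contrasts were also not repeated without cells that hold a Gdf15 UMI. Chac1 (2.26, adjusted p = 4.1e-04), Trib3 (1.97, adjusted p = 6.2e-05), Asns (1.54, adjusted p = 3.3e-06), Sesn2 (0.99, adjusted p = 0.00369), Psat1 (0.96, adjusted p = 2.4e-07) and Phgdh (0.75, adjusted p = 2.8e-07) were shifted up in cluster 2 relative to cluster 0. Sesn2 did not pass without PRMT1Cx3cr1-KO mouse 2 (0.56, adjusted p = 0.135). For cluster 4 it was 5 of the 10 where 5.42% of genes differed, with Trib3 (2.30, adjusted p = 0.049), Asns (2.09, adjusted p = 2.7e-06), Psat1 (1.26, adjusted p = 1.0e-08), Phgdh (0.78, adjusted p = 3.1e-05) and Atf4 (0.70, adjusted p = 7.8e-04), of which only Psat1 (0.77, adjusted p = 0.0493) passed without PRMT1Cx3cr1-KO mouse 2. Without PRMT1FL mouse 2, Atf4 (0.58), Trib3 (2.42) and Phgdh (0.72) did not pass, nor did Trib3 without PRMT1FL mouse 1 (2.17).

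**Figure D4:**
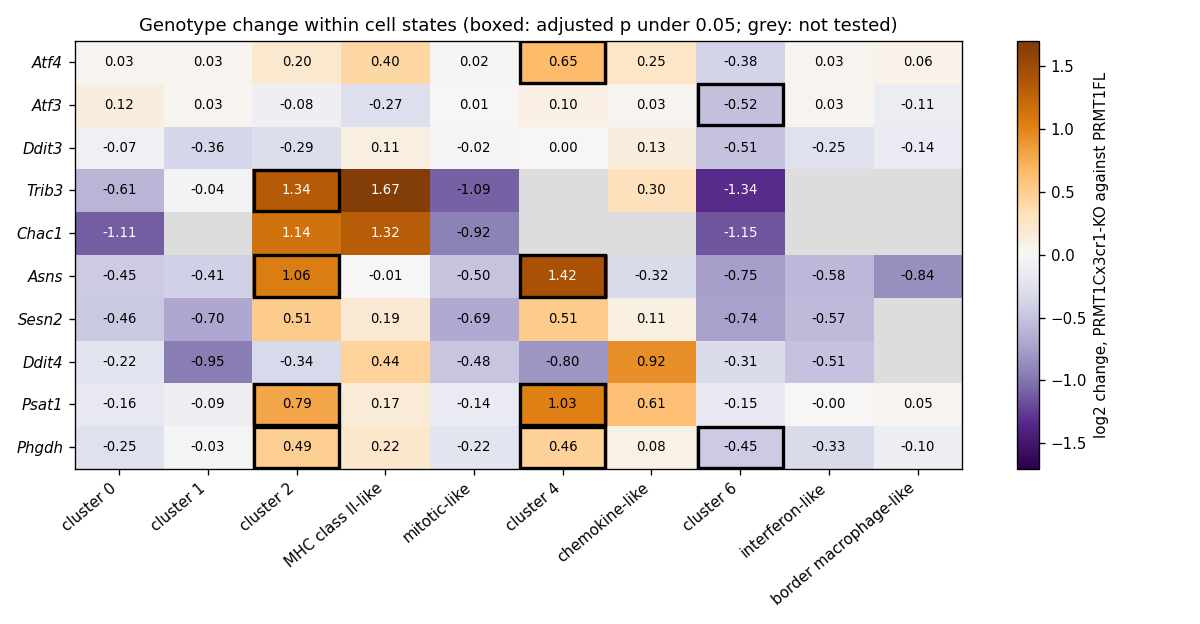
Log2 change of each tested gene between PRMT1Cx3cr1-KO and PRMT1FL mice within each cell state, with the value written in and shaded, boxes for an adjusted p under 0.05 and grey where the gene was not tested. The boxed rises sit in cluster 2 and cluster 4 and the boxed falls in cluster 6.

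With cells that hold a Gdf15 UMI left out of cluster 2, Trib3 alone among the 4 genes was no longer called, and the shift itself was not tested. Asns (0.89, adjusted p = 0.0101), Psat1 (0.79) and Phgdh (0.43) were still called by edgeR, and Trib3 fell to 0.74 (adjusted p = 0.175). In cluster 4 all 4 genes were still called (Atf4 0.65, Asns 1.39, Psat1 1.01, Phgdh 0.47), and in cluster 6 Atf3 was (-0.52) while Phgdh was not (-0.43, adjusted p = 0.104). The makeup of cluster 2 was not the same in both genotypes. A finer clustering set apart a group led by Osgin1, Gdf15 and Tnfaip2, with 20 and 18 cells from PRMT1FL but 404 and 419 from PRMT1Cx3cr1-KO mice, which held 10.9% of cluster 2. The finer cluster 3, which took 68.2% of cluster 2 and little else, was compared by itself: Asns (0.93, adjusted p = 0.0343), Psat1 (0.74, adjusted p = 7.1e-04) and Phgdh (0.39, adjusted p = 0.0112) were called higher by edgeR, while Trib3 (1.35, adjusted p = 0.0677) was not, 3 of the 9 genes tested where 11.1% of genes were called. The finer cluster 6, which took 87.6% of cluster 4, gave fewer calls. Psat1 was higher there (1.14, adjusted p = 4.7e-04), while Atf4 (0.47, adjusted p = 0.0798), Asns (1.31, adjusted p = 0.0564) and Phgdh (0.37, adjusted p = 0.152) did not pass by edgeR, 1 of the 7 genes tested where 9.24% of genes were called.

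Of the wider list 15 of 57 tested genes were higher and 0 lower in cluster 2 (median log2 change 0.19), where 8.34% of all genes were higher, and 8 of 51 were higher and 0 lower in cluster 4, where 4.31% were higher. The largest in cluster 2 were Slc7a11 (3.77), Sqstm1 (1.26), the cell cycle inhibitor Cdkn1a (1.11), Ppp1r15a (0.85) and Jdp2 (0.82), with adjusted p from 8.9e-10 to 0.00141 by edgeR. In cluster 6, 0 of 57 were higher and 4 lower (Vegfa, Atf5, Mthfd2 and Gars), where 65 of 10175 genes were lower. Psat1 and Phgdh are also expressed by astrocytes. Astrocyte markers summed to 137 and 136 CPM in cluster 2 of PRMT1FL mice and to 108 and 92.9 CPM in PRMT1Cx3cr1-KO mice, and their part in Psat1 and Phgdh was not tested.

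The highest levels of several of the genes lay outside microglia. Oligodendrocyte-like cells, 27, 19, 8 and 0 in the 4 mice, passed the sort in small numbers, and 3 of the 54 (5.56%) were marked as doublets. Ddit3 was at 530 CPM in them against 49.4 CPM in microglia, on 216 UMIs, a ratio of 10.7 (exact 95% Poisson interval 9.35 to 12.3, counting error only). Trib3 had a ratio of 19.2 (13.2 to 26.9) on 33 UMIs, Chac1 29.2 (17 to 46.7) on 17 UMIs, Ddit4 12.5 (7.74 to 19.1) and Asns 5.44 (3.97 to 7.28). Per mouse Ddit3 was at 548, 541 and 428 CPM, the last from the 8 cells of PRMT1Cx3cr1-KO mouse 1, the only mouse of its genotype with such cells. PRMT1FL mice gave 32 of the 33 Trib3 UMIs and all 17 Chac1 UMIs. In PRMT1FL mice alone the ratio of Ddit4 was 7.79 (4.03 to 13.6). Atf4 exceeded microglia by a ratio of 1.80 (1.4 to 2.29), Phgdh by 2.49 and Psat1 by 1.63, Sesn2 was level at 1.04 (0.215 to 3.05) and Atf3 lower at 0.222. CPZ is known to kill mature oligodendrocytes, and the cells here are those that survived the sort with CD45 and CD11b, so they need not stand for the oligodendrocytes of the brain. Homeostatic microglial markers summed to 410 CPM in them against 2451 CPM in cluster 0, and oligodendrocyte markers to 21376 CPM. Astrocyte-like cells were high in Ddit4 (ratio 13.6, 10.7 to 17.1) and Chac1 (11.3, 6.99 to 17.3), and endothelium-like cells in Ddit4 (30.8, 19.3 to 46.6).

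Finally, the genes were compared cell by cell, within mouse and state, after thinning microglia to 3000 UMIs. In the 367 cells with a Trib3 UMI, Chac1 had 10.1 times the UMIs found on average in cells without one of the same mouse and state (Poisson interval 5.77 to 16.4). That ratio rested on 16 Chac1 UMIs and ran from 0 to 18.4 over mice. Gdf15 had 10.6 times (9.70 to 11.5), Sesn2 4.49 times (3.14 to 6.21), Asns 3.36 times (2.64 to 4.22) and Atf4 1.99 times (1.73 to 2.28). Sesn2 and Asns exceeded 1 in every mouse (3.48 to 6.93 and 2.56 to 3.97), while the Gdf15 ratio ran from 0.909 to 12.8 over mice. Psat1 (1.2, 1.04 to 1.38) and Atf3 (1.28, 1.22 to 1.35) had the lowest ratios in the same cells, while Ddit3 was at 2.61, Ddit4 at 2.53 and Phgdh at 1.77. The 126 cells with a Chac1 UMI gave a like list, with Trib3 at 8.04 (14 UMIs, 0 to 12 over mice), Gdf15 at 6.42, Sesn2 at 4.95 and Asns at 3.29. Relative to the UMIs expected, Trib3, Chac1, Sesn2 and Asns were thus in greater excess in each other's cells than Psat1 or Atf3 were. In number, the cells with a Trib3 UMI held more UMIs of Atf3 (1338) and Psat1 (196) than of Asns (74), Sesn2 (36) or Chac1 (16). This is a description with no test, since cells of a mouse share a library.

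**Figure D5:**
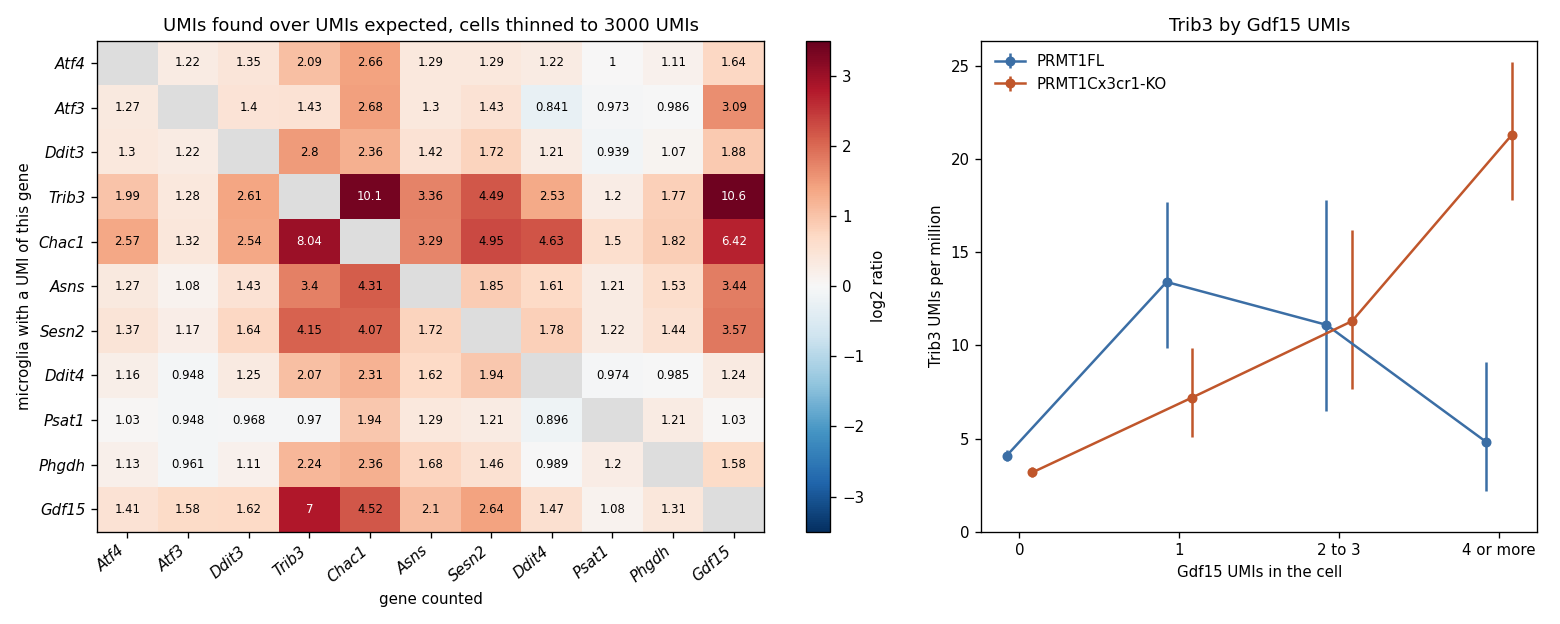
Left, for microglia holding a UMI of the gene in each row, the UMIs of the gene in each column as a ratio to the number that cells without that UMI, of the same mouse and state, would give, at 3000 UMIs per cell and shaded on a log2 scale. Right, Trib3 in CPM against the number of Gdf15 UMIs in the cell, with exact Poisson intervals as bars. Pooled over mice, Trib3 and Chac1 are in excess of expectation in each other's cells (10.1 and 8.04, on 16 and 14 UMIs), with ratios over 1 in 3 mice. In PRMT1Cx3cr1-KO cells Trib3 reaches 21.3 CPM with 4 or more Gdf15 UMIs.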

How the data were processed

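Droplet libraries (10x Genomics) of CD45+ CD11b+ brain cells from 2 PRMT1FL and 2 PRMT1Cx3cr1-KO mice were analysed, 1 library per mouse. The authors aligned the reads to mm10 and deposited raw UMI counts per gene and barcode, without normalization; the submitters' processing notes name Cell Ranger 3.1.0, Seurat 3.2.0 and Scanpy 1.5.2. Library totals were 91306165 and 76943248 UMIs (PRMT1FL) and 85874289 and 99559644 UMIs (PRMT1Cx3cr1-KO).

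A cell was kept if it had 200 to 6000 genes and no more than 10% of its UMIs from mitochondrial genes. Simulated doublets marked 9.15, 6.54, 8.29 and 8.72% of the cells (the automatic threshold, which marked 0 to 5 cells per mouse, did not work), and marked cells were kept in the main tests. Counts were scaled to 10000 per cell, and 2000 variable genes, 20 principal components and 15 neighbours were used for Leiden clustering at resolution 0.4 (Scanpy 1.11.5, leidenalg 0.10.2, Python 3.11.15). The 10 genes, Gdf15, the wider list and 749 genes that differed between genotypes over all cells took no part in it. States were named from fixed markers. UMIs were summed per mouse over microglial clusters, over cells with and without a Gdf15 UMI, and over each state with at least 50 cells in every mouse, and were tested with edgeR 4.0.16 (TMM, filterByExpr, quasi-likelihood test, Benjamini-Hochberg over all genes tested, threshold 0.05; R 4.3.3). With against without Gdf15, and all differences of effects, had the mouse as a term. CPM in the text are UMIs per 1000000 UMIs of the same cells, whereas log2 changes come from the fits. DESeq2 1.42.0, limma 3.58.1 and the settings in the closing section were alternatives. Fits with the cell state as a term were made with limma's voom.

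Tested on simulated counts, the genotype fit recovered 82% of genes changed by 1 and 96% of those changed by 2 on the log2 scale (13767 genes), the Gdf15 fit 85.9% and 92.7% (12781 genes) and the cluster 2 fit 88% and 96.9% (11403 genes). Only changes of 1 and 2 were simulated, on genes drawn at random, with counts from the kind of model that was then fitted. The recovery of smaller changes, such as those of the 10 genes in all microglia, was thus not measured. Intervals on single counts cover counting error only.

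The 10 genes and all lists were chosen with earlier results of these data known. Named beside them are Prmt1 and Gdf15, the 4 eIF2 alpha kinases, Ppp1r15a, Atf5, up to 5 of the most changed called genes of a list per direction, and the 3 genes most correlated with Atf4, Atf3 and Ddit3 (log2 of CPM + 1, genes with a mean of at least 5 CPM). Other lists were endoplasmic reticulum chaperones, mitochondrial stress, p53, NRF2, glucocorticoid and dissociation genes. Promoter windows are from RefSeq (GRCm38.p6), and gene coordinates from the GENCODE annotation of GRCm38.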

Additional observations from a re-analysis of the deposited data

Results flagged for a closer look

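Some genotype changes differed between sets of cells of the same mice by a test of the difference itself (edgeR's quasi-likelihood test, adjusted over all genes). Between microglia with and without a Gdf15 UMI the genotype change of Psat1 differed by -0.43 and that of Phgdh by -0.37. Both were lost with the cell state as a term (-0.20 and -0.15).

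Between cluster 2 and cluster 0 the genotype change differed by 2.26 for Chac1, 1.97 for Trib3, 1.54 for Asns, 0.99 for Sesn2, 0.96 for Psat1 and 0.75 for Phgdh, on the log2 scale. Between cluster 4 and cluster 0 it differed by 2.30 for Trib3, 2.09 for Asns, 1.26 for Psat1, 0.78 for Phgdh and 0.70 for Atf4. Both contrasts with cluster 0 were added after the rises in clusters 2 and 4 had been seen. Neither was repeated without marked doublets or without cells that hold a Gdf15 UMI. Within cluster 2 (1.14) and within cluster 0 (-1.11) the genotype change of Chac1 did not pass. In cluster 4, Trib3 had too few UMIs for a test of its own, and without PRMT1Cx3cr1-KO mouse 2 its difference was 1.13 (adjusted p = 0.793 from edgeR). Groups of 2 mice are too small for a search for outlying samples.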

How the results depend on the processing

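Of 669 recomputed values 548 kept their direction and their side of the threshold, 57 no longer passed, 24 newly passed and 40 changed sign. Leaving out each mouse in turn, 0 to 4 of the 10 genes were called between genotypes in all microglia and 0 to 4 in those without a Gdf15 UMI, 0 to 3 in those with one, 2 to 6 for the difference between these sets, 7 to 36 over the cell states and 0 to 14 of the wider list. The replicate block, a fit with the replicate number as a term, left the calls at 0 in all microglia, 0 in those without a Gdf15 UMI and 3 in those with one. Mice share only a number across genotypes, and their deviations from the genotype means had r = -0.0197 over 13819 genes.

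In microglia without a Gdf15 UMI, 1 gene was called with no filter on low counts and 1 with the cell state as a term. In those with one, 0 were called by DESeq2, 0 after thinning, 0 with the cell state as a term and 1 with at least 2 Gdf15 UMIs. For the difference between the sets, 0 were called by limma's voom, 1 after thinning and 0 with the cell state as a term. The finer clustering gave 5 calls over states in place of 10, and DESeq2 called 4 genes of the wider list in place of 0. For most of these settings the share of all genes called is not given, so the counts stand without it. The causes were not tested.

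The values that changed sign had not passed as reported. Of those given next, Psat1 in PRMT1FL mice alone passed on its new side. Thinned to 1000 UMIs, the genotype change in all microglia was 0.20 for Trib3, 0.23 for Chac1, 0.12 for Sesn2 and 0.02 for Phgdh. In those without a Gdf15 UMI it was 0.07 for Chac1, 0.04 for Sesn2 and 0.02 for Phgdh. Gdf15 status was read from the thinned counts wherever cells were thinned. In those with one, Atf3 was 0.15 thinned and 0.09 without doublets, and Ddit3 0.03 without doublets and 0.14 with the cell state as a term. The difference between the sets was -0.58 for Ddit3 and 0.28 for Asns when thinned (median of all genes 0.21) and -0.02 for Atf3 with the cell state as a term. Psat1 with against without Gdf15 was 0.22 in PRMT1FL mice alone and 0.09 with the cell state as a term.

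Without each mouse in turn, values in all microglia ran from -0.12 to 0.27 (Atf4), -0.44 to 0.13 (Atf3), -0.40 to 0.05 (Ddit3), -0.46 to 0.12 (Trib3), -0.60 to 0.13 (Chac1), -0.47 to 0.02 (Sesn2), -0.03 to 0.09 (Psat1) and -0.11 to 0.01 (Phgdh). Without a Gdf15 UMI they ran from -0.16 to 0.25 (Atf4), -0.51 to 0.10 (Atf3), -0.47 to 0.05 (Ddit3) and -0.09 to 0.03 (Phgdh), and with one from -0.16 to 0.14 (Atf3), -0.11 to 0.02 (Ddit3) and -0.59 to 0.13 (Sesn2). The difference ran from -0.08 to 0.43 (Ddit3), -0.05 to 0.19 (Sesn2) and -0.73 to 0.04 (Ddit4), and Psat1 with against without Gdf15 from -0.11 to 0.08.

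Chac1, Trib3 and Ddit4 are limited by depth, with 9 to 116 UMIs per mouse in cells with a Gdf15 UMI. With the cell state as a term Chac1 could not be tested in any comparison, and thinning left Trib3, Chac1, Asns, Sesn2 and Ddit4 untested between genotypes in cells with a Gdf15 UMI.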

Other observations

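Lists next to the integrated stress response were counted in the same fits by edgeR. In all microglia 0.666% of all genes were called between genotypes (19.8% at an unadjusted p under 0.05, 5.18% by DESeq2), and 2.80% were higher in cells with a Gdf15 UMI. NRF2 targets, which answer oxidative stress, had 2 of 8 called between genotypes in all microglia (4 by DESeq2; Srxn1 1.42, adjusted p = 0.048; Txnrd1 0.77, adjusted p = 0.0452), and 6 of 8 were higher in cells with a Gdf15 UMI. In cluster 2, where 15.7% of genes were called, 7 of 7 tested NRF2 targets were higher in PRMT1Cx3cr1-KO mice, Slc7a11 of the wider list among them. Chaperones of the endoplasmic reticulum showed 0 of 12 called between genotypes in all microglia (0 at an unadjusted p under 0.05, 0 by DESeq2) and 0 of 12 in cluster 2 (2 at that level), and with against without Gdf15 only Hspa5 (0.19, adjusted p = 0.0377) and Sdf2l1 (-0.23, adjusted p = 0.0284) passed. In cluster 4, Pdia4 and Hspa5 were higher in PRMT1Cx3cr1-KO mice. In the tests of the difference itself, the genotype change of 7 of the 12 was higher in cluster 2 than in cluster 0 (14.0% of all genes differed in either direction), that of 4 was higher in cluster 4 than in cluster 0 (5.42%), and that of 4 was lower in cells with than without a Gdf15 UMI (5.71%).

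Of the other lists, 0 genes were called between genotypes in all microglia by edgeR for p53 targets (4 of 8 at an unadjusted p under 0.05, 2 by DESeq2), glucocorticoid targets (4 of 6 and 2), mitochondrial stress (0 of 7 and 0) and dissociation (2 of 10 and 1). With against without a Gdf15 UMI 3 of 8 p53 targets, 2 of 6 glucocorticoid targets and 1 of 7 mitochondrial stress genes were higher. In cluster 2, where 15.7% of genes were called, 4 of 10 dissociation genes were higher and 2, Hspa1b and Hspa1a, lower in PRMT1Cx3cr1-KO mice. The p53, glucocorticoid and wider lists share Cdkn1a, and the NRF2 and wider lists share Slc7a11.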
